A study of Mus musculus with 9 samples.

Results

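The prostaglandin pathway was followed through 10 genes, read from the deposited count table by gene name: the cyclooxygenases Ptgs2 and Ptgs1, the prostaglandin E synthases Ptges and Ptges2, the prostaglandin D synthases Ptgds and Hpgds, the degrading enzyme Hpgd, and the receptors Ptger3, Ptger4 and Ptgdr. They are 10 of 21899 genes measured, and each name matched 1 row. The tissue was the paraventricular nucleus of the thalamus (PVT) of wild-type mice, which lies at the midline and takes part in arousal. Its transcripts were read by bulk RNA sequencing. Lipopolysaccharide (LPS), a component of the bacterial outer membrane, or phosphate-buffered saline (PBS) had been injected into the peritoneal cavity. The groups were LPS at 1 day, LPS at 7 days and PBS at 1 day, with 3 libraries each. No PBS libraries from day 7 were analysed here, and day and treatment therefore cannot be told apart where LPS at 7 days is set against PBS. The labels used here give neither strain, sex nor age. They do not say whether the libraries of a group came from separate animals, and each p-value is therefore set by library-to-library spread that may be technical.

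Prostaglandins are lipid messengers made from arachidonic acid, which phospholipases release from membranes. The cyclooxygenases turn it into prostaglandin H, which specific synthases convert to prostaglandin E, prostaglandin D and others, each with its own G protein-coupled receptors. In the brain, prostaglandin E made by endothelial and perivascular cells mediates fever and sickness behaviour, and prostaglandin D, made largely by the lipocalin-type synthase of leptomeninges, choroid plexus and oligodendrocytes, promotes sleep through its receptor Ptgdr.

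The libraries held 13211422 to 17210526 gene counts. Levels in CPM are read counts relative to the TMM-corrected library total. Errors of levels are SDs over n = 3 libraries, and errors of changes on the log2 scale are SEs. Summed over the genes of the Y chromosome, the libraries held 81.7 to 85.3 CPM in LPS at 1 day and 90.8 to 102 CPM in LPS at 7 days, against 1, 0 and 0 counts in PBS, so that all LPS libraries hold Y-linked transcripts and the PBS libraries hold almost none. Treatment and the sex of the animals cannot be told apart in any comparison with PBS. All 7 markers of PVT and midline thalamus were detected, with a summed level of 451 to 470 CPM in LPS at 1 day, 523 to 550 CPM in LPS at 7 days and 657 to 671 CPM in PBS. Transcripts of other regions were present too: 7 cerebellar markers summed to 57.0 to 57.9 CPM in LPS at 1 day, 1243 to 1273 CPM in LPS at 7 days and 69.2 to 80.2 CPM in PBS. The part of these differences in the results below was not tested. In tissue as a whole, more cells of a type and more transcript per cell cannot be told apart.

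Of the 10 genes, 4 rose and 1 fell in LPS at 1 day against PBS (edgeR quasi-likelihood test, Benjamini-Hochberg adjusted p under 0.05 over all genes tested), beside 24.9% of 14837 genes tested that rose and 24.2% that fell. Ptgs2, Ptgds, Ptgdr and Ptges rose and Ptger3 fell. Ptgdr met the count minimum only through LPS at 1 day, the group in which it was highest. Such an entry favours a difference, so its place in these counts supports nothing. In LPS at 7 days against LPS at 1 day, 4 of the 10 fell and 0 rose, where 29.1% of all genes tested fell and 27.5% rose (4324 down and 4075 up, but 3679 down and 4867 up with library size alone as the scaling, and 4046 down and 4396 up with upper-quartile factors). The genes that fell were Ptgs2, Ptgds, Ptger4 and Ptgdr, and neither edgeR, at an unadjusted p under 0.05, nor DESeq2, after adjustment, gave a rise among the 10. In LPS at 7 days against PBS, Ptgds rose and Ptger4 fell, 1 gene each way, beside 16.8% and 18.9% of all genes tested (2489 up and 2800 down, and 3183 up and 2327 down with library size alone as the scaling). In either direction 5, 4 and 2 of the 10 genes were called in the 3 comparisons in the order given, beside 49.1%, 56.6% and 35.6% of all genes tested, which is about the same share at 1 day against PBS and a smaller one in the others. The median log2 fold change of the 10 was 0.36 for LPS at 1 day against PBS, -0.30 for LPS at 7 days against LPS at 1 day and 0.01 for LPS at 7 days against PBS, with medians over all genes tested of -0.01, 0.00 and 0.00. Groups did not overlap for 6 of the 10 genes at 1 day against PBS (54.5% of all genes tested), for 2 at 7 days against PBS (44.2%) and for 6 at 7 days against 1 day (60.6%). The comparisons share libraries and are not independent of each other.

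**Figure D1:**
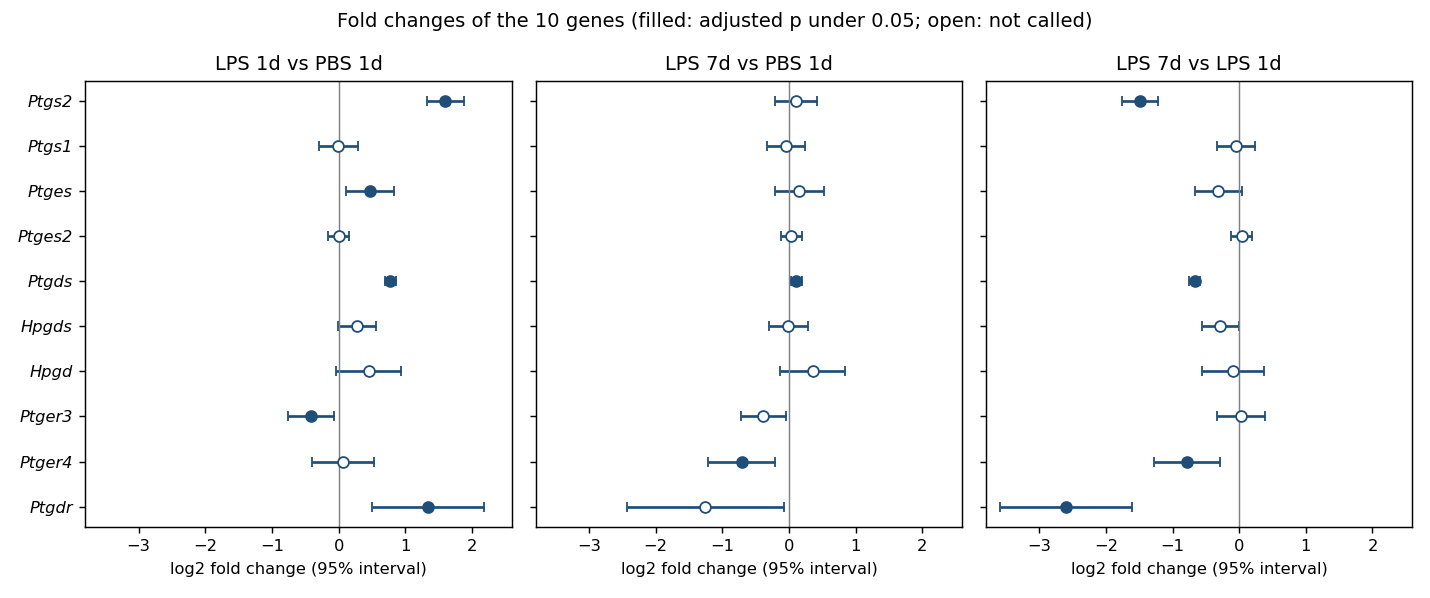
Log2 fold changes of the 10 genes (rows) in the 3 comparisons (panels), with 95% intervals from the edgeR fit; filled points have an adjusted p under 0.05. Ptgs2 and Ptgds lie right of 0 for LPS at 1 day against PBS and left of 0 for LPS at 7 days against LPS at 1 day, while the intervals of Ptgs1 and Ptges2 cross 0 in each panel.

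Ptgs2 (ENSMUSG00000032487, GRCm39 chr1:149975782-149983978, plus strand) encodes cyclooxygenase 2, the inducible form of the enzyme, which brain endothelium makes after LPS and excitatory neurons make with activity. It had 15.8, 15.2 and 16.4 CPM in the LPS libraries at 1 day (205, 244 and 269 counts), against 4.35, 6.45 and 4.84 CPM in PBS (74, 102 and 71 counts). Each of the LPS libraries at 1 day lay above each PBS library, by a fold change of 3.03 (log2 fold change 1.60 ± 0.14, SE; 95% interval 1.32 to 1.88; edgeR quasi-likelihood adjusted p = 4.74e-14). At 7 days Ptgs2 had 5.15, 6.11 and 5.62 CPM, values that overlap those in PBS (log2 fold change 0.11, 95% interval -0.20 to 0.43; edgeR adjusted p = 0.622). Against LPS at 1 day, the level at 7 days fell by 1.49 ± 0.13 on the log2 scale (edgeR adjusted p = 1.04e-13), to 0.356 of the 1 day level. The call at 1 day and the fall after it held when any single library was left out, with log2 fold changes of 1.48 to 1.78 and -1.55 to -1.43.

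Ptgs1 (ENSMUSG00000047250, GRCm39 chr2:36120438-36142284, plus strand) encodes cyclooxygenase 1, the constitutive form, found in the brain mainly in microglia. It averaged 7.63 ± 0.88 CPM in LPS at 1 day, 7.43 ± 0.58 CPM in LPS at 7 days and 7.66 ± 1.05 CPM in PBS. The 3 groups overlapped, and no comparison was called (edgeR adjusted p = 0.989, 0.823 and 0.804 for 1 day against PBS, 7 days against PBS and 7 days against 1 day). The 95% interval of its log2 fold change at 1 day was -0.29 to 0.29, and so lay wholly below that of Ptgs2, 1.32 to 1.88.

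The cyclooxygenases can be set against each other only per gene length, as FPKM (read counts scaled to gene length and library total, as deposited). Ptgs2 was 66.9%, 60.9% and 63.5% of the summed FPKM of Ptgs2 and Ptgs1 in LPS at 1 day. The share was 37.1%, 39.2% and 41.0% in LPS at 7 days and 29.4%, 43.8% and 36.7% in PBS. Ptgs2 was thus the more abundant cyclooxygenase transcript in the 3 LPS libraries at 1 day and the less abundant in the other 6. The sum of both was 5.32 ± 0.23 FPKM in LPS at 1 day, 3.21 ± 0.23 FPKM in LPS at 7 days and 3.09 ± 0.19 FPKM in PBS.

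**Figure D2:**
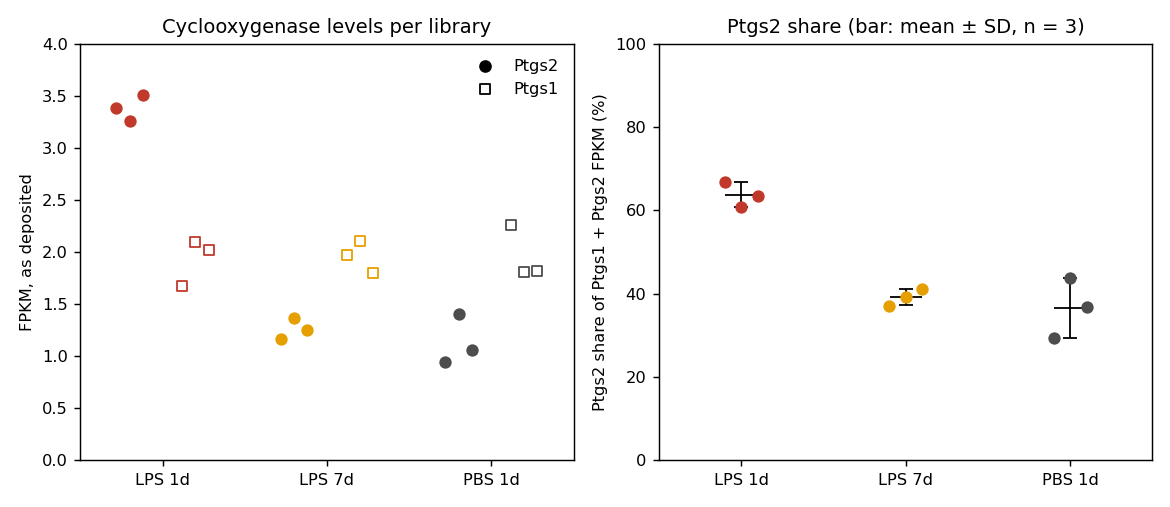
Left, FPKM of Ptgs2 (filled circles) and Ptgs1 (open squares) in each library of LPS at 1 day, LPS at 7 days and PBS. Right, the share of Ptgs2 in the FPKM sum of both (%), with mean ± SD, n = 3; the LPS libraries at 1 day sit between 60.9% and 66.9%, above every other library (29.4% to 43.8%).

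The start regions of Ptgs2, which rose at 1 day, and of Ptgs1, whose level did not pass in any comparison, are shown for comparison (RefSeq, GRCm38.p6, from 250 bases before to 50 bases after the annotated start, read on the gene's strand). Capitals mark every match on either strand to the letters GGGNNNNNCC (NF-kB), GNACANNNTGTNC (glucocorticoid response element), TGACG (core of the cAMP response element), TATAAA, a core promoter element, or the CCAAT box, or to the serum response element by its name. The Ptgs2 window lies at chr1:150099781-150100080 (plus strand) and the Ptgs1 window at chr2:36230176-36230475 (plus strand).
Ptgs2: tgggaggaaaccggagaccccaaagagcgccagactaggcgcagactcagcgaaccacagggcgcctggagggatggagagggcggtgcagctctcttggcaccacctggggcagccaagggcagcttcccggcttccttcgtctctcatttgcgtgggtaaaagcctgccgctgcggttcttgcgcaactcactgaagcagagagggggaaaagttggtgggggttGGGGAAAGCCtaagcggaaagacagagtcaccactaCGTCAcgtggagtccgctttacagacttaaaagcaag
Ptgs1: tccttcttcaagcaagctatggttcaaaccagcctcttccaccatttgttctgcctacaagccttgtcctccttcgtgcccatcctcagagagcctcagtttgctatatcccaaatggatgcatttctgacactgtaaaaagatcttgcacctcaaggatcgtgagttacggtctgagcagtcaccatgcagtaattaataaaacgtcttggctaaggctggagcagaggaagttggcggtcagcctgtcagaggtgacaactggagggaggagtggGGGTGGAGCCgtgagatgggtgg
The Ptgs2 window holds 1 NF-kB match (bases -23 to -14 from the start) and 1 cAMP element core (bases 14 to 18), and the Ptgs1 window 1 NF-kB match (bases 28 to 37). Over all 10 genes, 7 windows hold the NF-kB letters, which 50.8% of the 32851 windows of the table hold too. The cAMP element core is in 20.8% of all windows. The glucocorticoid letters (0.475% of all windows) and the serum response element (1.63%) were found in 0 of the 10. TATAAA (13.6%) and CCAAT (37.4%) were found in 1 window each, those of Hpgd and Ptger4. A match describes the letters only, and none of these windows was tested for binding.

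Several groups of transcripts known to share stimuli or cells with Ptgs2 differed between the same libraries. Of 6 listed genes for LPS and interleukin 1 family receptors and the adaptor Myd88, 5 were tested and 4 rose at 1 day against PBS. Among them was Il1r1, the signalling receptor for interleukin 1 on brain endothelium (18.3 ± 1.14 CPM in LPS at 1 day and 6.28 ± 0.56 CPM in PBS; log2 fold change 1.54 ± 0.13, edgeR adjusted p = 1.34e-14). Immediate early genes, which neuronal activity drives as it drives Ptgs2, fell in 7 of 7 cases, with summed levels of 282 to 297 CPM in LPS at 1 day, 406 to 442 CPM in LPS at 7 days and 602 to 631 CPM in PBS. In LPS at 1 day Ptgs2 was higher and the immediate early genes were lower than in PBS, and a link between them was not tested. Cortical and hippocampal excitatory markers summed to 1146 to 1178 CPM in LPS at 1 day, 861 to 890 CPM in LPS at 7 days and 954 to 992 CPM in PBS, with 3 up and 1 down of 7 at 1 day against PBS. Endothelial markers summed to 328 to 332 CPM in LPS at 1 day, 326 to 335 CPM in LPS at 7 days and 275 to 285 CPM in PBS, with 4 up and 2 down of 8 at 1 day against PBS. Glucocorticoid-induced genes rose in 6 of 6 cases at 1 day, with 805 to 825 CPM, 277 to 279 CPM and 451 to 458 CPM in LPS at 1 day, LPS at 7 days and PBS. Beside the counts of these lists at 1 day against PBS, 24.9% of all genes tested rose and 24.2% fell. The part of any of these transcript groups in the level of Ptgs2 was not tested.

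Ptges (ENSMUSG00000050737, GRCm39 chr2:30779483-30819875, minus strand) encodes the microsomal prostaglandin E synthase that is induced together with cyclooxygenase 2 in inflammation. It had 5.93, 5.54 and 5.05 CPM in LPS at 1 day, against 3.41, 4.81 and 3.68 CPM in PBS. The groups did not overlap and the log2 fold change was 0.47 ± 0.18 (SE; edgeR adjusted p = 0.0274). This call is weak: the adjusted p was 0.0509 with DESeq2, and in edgeR 0.135 without PBS replicate 1, 0.0784 without PBS replicate 3, and 0.0868 or 0.063 with LPS 1 day replicate 1 or 2 left out. In LPS at 7 days Ptges had 4.35, 4.63 and 4.26 CPM, below each LPS library at 1 day and among the PBS values, and neither comparison passed (edgeR adjusted p = 0.124 against LPS at 1 day and 0.552 against PBS).

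Ptges2 (ENSMUSG00000026820, GRCm39 chr2:32285908-32295784, plus strand) encodes another membrane-associated prostaglandin E synthase, which is made constitutively. It ranked next to Ptgds as the most abundant of the 10 transcripts per gene length in every group and hardly varied, with 28.3 ± 1.84 CPM in LPS at 1 day, 29.0 ± 1.99 CPM in LPS at 7 days and 28.2 ± 1.43 CPM in PBS. Its log2 fold change at 1 day was 0.00 with a 95% interval of -0.16 to 0.16 (edgeR adjusted p = 0.994). Ptges3, the cytosolic prostaglandin E synthase and a co-chaperone of HSP90, had 38.6 ± 2.03 CPM in LPS at 1 day and 42.3 ± 1.18 CPM in PBS, a difference that did not pass (edgeR adjusted p = 0.108). At 7 days it had 47.5 ± 2.78 CPM, a rise of 0.30 ± 0.07 on the log2 scale against LPS at 1 day (edgeR adjusted p = 0.000165) and of 0.17 ± 0.07 against PBS (edgeR adjusted p = 0.042).

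Ptgds (ENSMUSG00000015090, GRCm39 chr2:25356721-25360058, minus strand) encodes the lipocalin-type prostaglandin D synthase, which is also secreted into cerebrospinal fluid as a carrier of small lipophilic molecules. It was by far the most abundant of the 10, with 321 ± 7.47 FPKM in LPS at 1 day, 211 ± 4.51 FPKM in LPS at 7 days and 189.8 ± 17.3 FPKM in PBS. No other gene of the 10 averaged more than 5.86 FPKM in a group. In CPM it stood at 535, 552 and 529 in the LPS libraries at 1 day and at 286, 340 and 317 in PBS. The groups were far apart relative to their spread, by a fold change of 1.71 (95% interval 1.62 to 1.82; log2 fold change 0.78 ± 0.04, SE; edgeR adjusted p = 1.34e-21). At 7 days it had 330, 340 and 349 CPM, all below the LPS libraries at 1 day (log2 fold change -0.67 ± 0.04, edgeR adjusted p = 1.41e-19) and overlapping with PBS. Against PBS the level at 7 days was called higher by 0.11 ± 0.04 on the log2 scale (edgeR adjusted p = 0.0314). This value was 0.05 without PBS replicate 1 (adjusted p = 0.422), and the call was also lost without LPS 7 day replicate 2 (0.0785) or replicate 3 (0.126).

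The start region of Ptgds, which like Ptgs2 was highest in LPS at 1 day, lies at chr2:25469700-25469999 (GRCm38.p6, minus strand) and holds 1 match to the NF-kB letters, at bases -22 to -13 from the start, and none to the other motifs listed; the capitals mark that match.
Ptgds: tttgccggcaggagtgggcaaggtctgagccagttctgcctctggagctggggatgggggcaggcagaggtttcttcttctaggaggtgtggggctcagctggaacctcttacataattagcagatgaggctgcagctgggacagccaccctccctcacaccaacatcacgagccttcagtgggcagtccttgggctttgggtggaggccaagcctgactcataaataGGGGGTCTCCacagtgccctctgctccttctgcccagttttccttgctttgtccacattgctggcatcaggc
It carries 2 CG dinucleotides in 300 bases, against 16 in the window of Ptgs2 and 6 in that of Ptgs1.

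Markers of cell types known to make Ptgds differed between the same libraries. Of 11 tested leptomeningeal and fibroblast markers, 7 rose and 1 fell in LPS at 1 day against PBS, and the 12 markers summed to 196 to 213 CPM in LPS at 1 day, 159 to 166 CPM in LPS at 7 days and 147 to 156 CPM in PBS. Ptgds was likewise highest in LPS at 1 day, while its levels at 7 days overlapped those in PBS. The summed level of 6 astrocyte markers was also highest at 1 day, but the single markers were mixed. They summed to 3637 to 3670 CPM in LPS at 1 day, 3060 to 3130 CPM in LPS at 7 days and 2999 to 3077 CPM in PBS. Of these 6 markers, 4 rose and 2 fell at 1 day against PBS. At 7 days 3 rose and 3 fell against 1 day, and 4 rose and 1 fell against PBS. Of 8 choroid plexus markers, 1 rose and 7 did not pass at 1 day against PBS, and they summed to 486 to 501 CPM in LPS at 1 day, 358 to 371 CPM in LPS at 7 days and 460 to 522 CPM in PBS. Oligodendrocyte markers fell in 6 of 8 cases and rose in 1 at 1 day against PBS, and rose in 8 of 8 at 7 days against 1 day, with 7002 to 7030 CPM in LPS at 1 day, 9419 to 10030 CPM in LPS at 7 days and 7021 to 7397 CPM in PBS. Beside these counts, 24.9% of all genes tested rose and 24.2% fell at 1 day against PBS. At 7 days 27.5% rose and 29.1% fell against 1 day, and 16.8% rose and 18.9% fell against PBS. The part of any of these cells in the level of Ptgds was not tested.

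Hpgds (ENSMUSG00000029919, GRCm39 chr6:65094277-65121892, minus strand) encodes the haematopoietic prostaglandin D synthase, which in the brain is found in microglia and mast cells. It had 8.48, 8.41 and 8.21 CPM in LPS at 1 day, 7.23, 6.85 and 6.56 CPM in LPS at 7 days and 7.11, 7.72 and 5.86 CPM in PBS. The LPS libraries at 1 day lay above all others and close together, but no comparison passed: the log2 fold change was 0.27 at 1 day against PBS (95% interval -0.01 to 0.56, edgeR adjusted p = 0.105) and -0.28 at 7 days against 1 day (-0.56 to 0.00, edgeR adjusted p = 0.0849). Ptgds exceeded Hpgds by a factor of 251 ± 5.01 in FPKM in LPS at 1 day, 193 ± 14.8 in LPS at 7 days and 179.8 ± 27.9 in PBS. Microglial markers summed to 295 to 313 CPM, 259 to 269 CPM and 264 to 282 CPM in the same order. Single markers were mixed: of 8 tested, 3 rose and 2 fell at 1 day against PBS, beside 24.9% and 24.2% of all genes tested. At 7 days against 1 day 2 rose and 3 fell, beside 27.5% and 29.1%. Of 6 mast cell markers, 1 had no count in LPS at 1 day, 0 in LPS at 7 days and 4 in PBS. They summed to 56.4 to 58.1 CPM in LPS at 1 day, 91.3 to 95.8 CPM in LPS at 7 days and 51.7 to 57.6 CPM in PBS. Kit, which neurons also express, was the 1 marker tested, with 56.8 ± 1.08, 92.7 ± 2.22 and 54.1 ± 3.12 CPM in the same order, and was called higher at 7 days against PBS (log2 fold change 0.78 ± 0.05, edgeR adjusted p = 2.87e-17). The part of these cells in the level of Hpgds was not tested.

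Hpgd (ENSMUSG00000031613, GRCm39 chr8:56747620-56774078, plus strand) encodes the dehydrogenase that inactivates prostaglandins. It had 3.31, 3.55 and 2.43 CPM in LPS at 1 day, 2.51, 2.78 and 3.37 CPM in LPS at 7 days and 1.94, 2.66 and 2.18 CPM in PBS. The groups overlapped, and the log2 fold change of 0.45 at 1 day against PBS did not pass (95% interval -0.04 to 0.94, edgeR adjusted p = 0.12). With 43, 57 and 40 counts in the LPS libraries at 1 day the upper end of the fold change's 95% interval was 1.92.

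**Figure D3:**
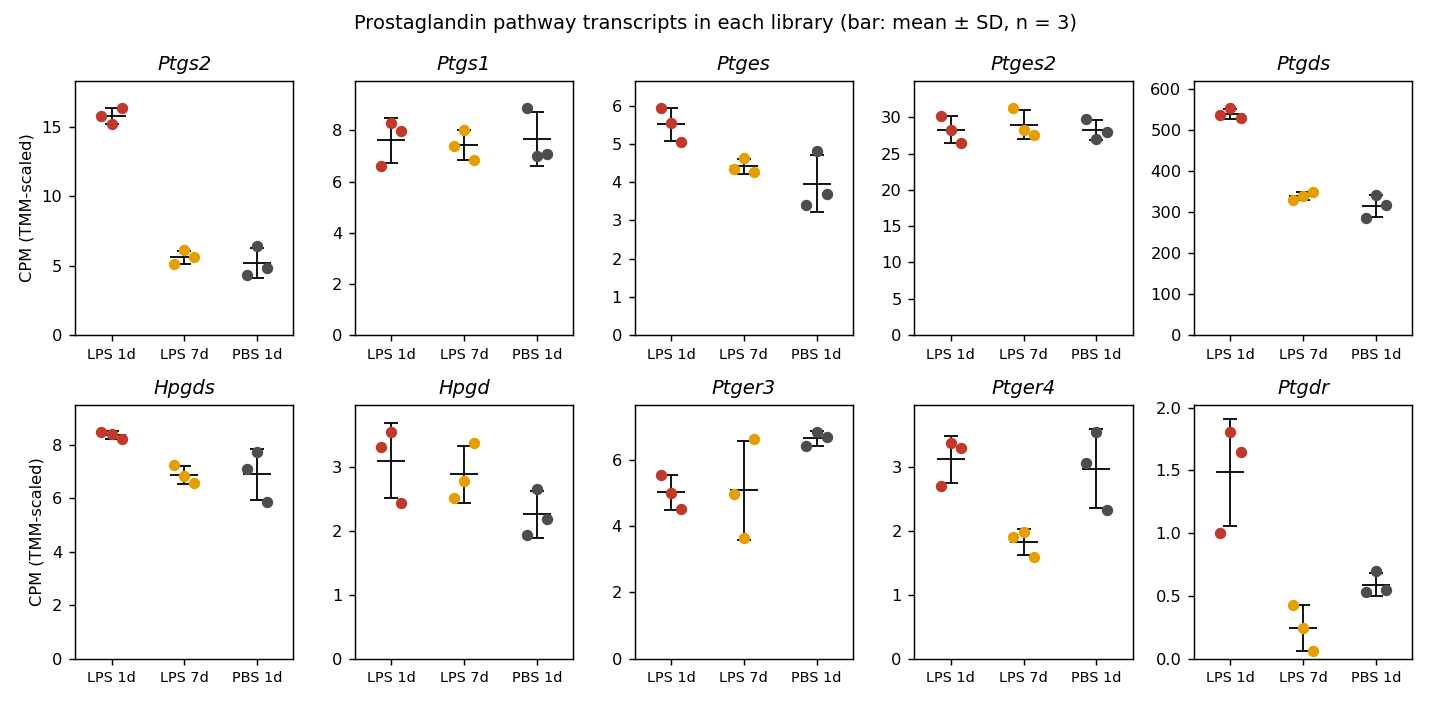
TMM-scaled CPM of the 10 genes in each library (points) with mean ± SD (n = 3) for LPS at 1 day, LPS at 7 days and PBS at 1 day; every axis starts at 0. Ptgs2, Ptges, Ptgds, Hpgds and Ptgdr are highest in the LPS libraries at 1 day with no overlap, although Hpgds passed in no comparison. Ptger4 is lowest in the LPS libraries at 7 days, and the 7 day libraries of Ptger3 spread from 3.64 to 6.62 CPM.

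Ptgdr (ENSMUSG00000071489, GRCm39 chr14:45088692-45096832, minus strand) encodes the prostaglandin D receptor DP1, which raises cyclic AMP and mediates the sleep effect of prostaglandin D. It was the rarest of the 10, with 13, 29 and 27 counts in LPS at 1 day, 7, 4 and 1 counts in LPS at 7 days and 9, 11 and 8 counts in PBS (1.00, 1.81 and 1.64 CPM, then 0.429, 0.247 and 0.0591 CPM, then 0.529, 0.696 and 0.545 CPM). The 3 groups did not overlap, with LPS at 1 day highest, PBS between and LPS at 7 days lowest. The log2 fold change at 1 day against PBS was 1.34 ± 0.42 (SE; fold 2.53, 95% interval 1.41 to 4.54; edgeR adjusted p = 0.00665). With any single library left out, the highest adjusted p was 0.0443. At 7 days the level fell by 2.59 ± 0.49 on the log2 scale against LPS at 1 day (edgeR adjusted p = 1.32e-05). Against PBS the difference of -1.25 (95% interval -2.42 to -0.08) did not pass (edgeR adjusted p = 0.0901), but did without LPS 7 day replicate 1 (-1.91, adjusted p = 0.0393), and was -0.79 without replicate 3 (adjusted p = 0.351). The gene met the count minimum in all 3 LPS libraries at 1 day, in 1 PBS library and in 0 at 7 days, so it entered the test through the group in which it was highest. Such an entry favours a difference from LPS at 1 day. The tests of Ptgdr that involve that group, also with a library left out, therefore support nothing.

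The start region of Ptgdr lies at chr14:44859326-44859625 (GRCm38.p6, minus strand) and is shown as that of the receptor for the product of Ptgds. Its capitals mark the 1 match found, to the NF-kB letters on the opposite strand at bases -153 to -144.
Ptgdr: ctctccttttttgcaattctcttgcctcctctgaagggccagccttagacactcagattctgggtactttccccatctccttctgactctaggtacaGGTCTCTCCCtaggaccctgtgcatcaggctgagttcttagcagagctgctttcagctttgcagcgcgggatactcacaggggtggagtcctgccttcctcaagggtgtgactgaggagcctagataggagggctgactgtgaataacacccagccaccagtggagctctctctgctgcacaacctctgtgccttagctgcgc
It carries 3 CG dinucleotides.

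Ptger3 (ENSMUSG00000040016, GRCm39 chr3:157272529-157351525, plus strand) encodes EP3, an inhibitory receptor for prostaglandin E which in the preoptic area mediates fever. It had 5.55, 4.98 and 4.50 CPM in LPS at 1 day, against 6.40, 6.83 and 6.68 CPM in PBS. All LPS libraries at 1 day lay below all PBS libraries (log2 fold change -0.41 ± 0.17, SE; edgeR adjusted p = 0.0454). The call lies at the threshold: the adjusted p was 0.0881 with DESeq2, and in edgeR 0.0596, 0.104 and 0.0914 without PBS replicate 1, 2 or 3, and 0.0925 or 0.167 with LPS 1 day replicate 2 or 3 left out. The LPS libraries at 7 days were spread, with 4.96, 3.64 and 6.62 CPM, and the difference from PBS of -0.38 did not pass (95% interval -0.73 to -0.04, edgeR adjusted p = 0.0764). With LPS 7 day replicate 3 left out it was -0.62 (edgeR adjusted p = 0.00774), and with replicate 2 left out it was -0.19 (0.449).

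Ptger4 (ENSMUSG00000039942, GRCm39 chr15:5236142-5273668, minus strand) encodes EP4, a receptor for prostaglandin E that raises cyclic AMP. It had 1.90, 1.97 and 1.60 CPM in LPS at 7 days, against 2.70, 3.36 and 3.28 CPM in LPS at 1 day and 3.05, 3.54 and 2.32 CPM in PBS. The 7 day libraries lay below the other 6, and the LPS libraries at 1 day overlapped with PBS. The fall at 7 days was 0.78 ± 0.25 on the log2 scale against LPS at 1 day (log2 fold change -0.78, edgeR adjusted p = 0.0065) and 0.71 ± 0.25 against PBS (log2 fold change -0.71, edgeR adjusted p = 0.021). The first held without any single library (highest adjusted p = 0.0343). The second was lost without PBS replicate 1 (0.0587), PBS replicate 2 (0.122) or LPS 7 day replicate 3 (0.0864). At 1 day against PBS the log2 fold change was 0.07 (95% interval -0.39 to 0.54, edgeR adjusted p = 0.819). The gene overlaps Ttc33, on the opposite strand, over 11676 bases (GRCm39, chromosome 15, 5236142 to 5247817), and the strandedness of the counts is not given in the sources used here. Ttc33 had 17.8 ± 0.83 CPM in LPS at 7 days, 18.01 ± 1.90 CPM in LPS at 1 day and 16.2 ± 1.33 CPM in PBS and passed in no comparison (edgeR adjusted p = 0.865, 0.195 and 0.311 for 7 days against 1 day, 1 day against PBS and 7 days against PBS).

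The order of the 10 transcripts per gene length began with Ptgds and Ptges2 and ended with Ptger4 and Ptgdr in each group, and neither Ptgds nor Ptges2 overlapped in FPKM with the gene ranked after it. Ptgs2 had rank 3 in LPS at 1 day (3.39 ± 0.12 FPKM), rank 5 in LPS at 7 days (1.25 ± 0.10 FPKM) and rank 6 in PBS (1.13 ± 0.24 FPKM). In PBS the libraries of Ptgs2 overlapped with those of its neighbours in the order, Ptger3 and Hpgds, and at 7 days with those of Ptges. In LPS at 1 day the receptors lay at the low end, with 0.866 ± 0.0903 FPKM for Ptger3, 0.461 ± 0.0541 FPKM for Ptger4 and 0.458 ± 0.131 FPKM for Ptgdr, where the last 2 overlapped. Ptger3 had rank 8 in both LPS groups but rank 5 in PBS (1.16 ± 0.04 FPKM).

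Across the 9 libraries Ptgs2 and Ptgds varied together, with a Pearson's r of 0.991 on log2 CPM. This is a description, because the points fall into the study's groups and share library and scaling. Ptgs2 had an r of 0.873 with Ptges, 0.824 with Hpgds and -0.04 with Ptgs1. The genes of all 14837 tested whose pattern was most like that of Ptgs2 were Zkscan5, Slc35b3 and Bcl2l1 (r = 0.994, 0.994 and 0.993). For Ptgds they were Slc35b3, Ucp2 and Ptgs2 itself (r = 0.993, 0.991 and 0.991). For Ptgdr they were Cxadr, Ammecr1 and Gcfc2 (r = 0.979, 0.978 and 0.977), for Ptger4 they included Oxtr and Morf4l2 (0.967 and 0.965), and for Ptges Vcpkmt, Rbm48 and Slc25a13 (0.972, 0.955 and 0.948).

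The wider pathway was counted over a further list of 53 gene names, of which 51 are in the table and 41 were tested. The names not found, Fam213b and Ptgr3, are synonyms of Prxl2b and Zadh2, which are in the list and were tested. At 1 day against PBS 8 rose, 12 fell and 21 did not pass, with a median log2 fold change of -0.13. At 7 days against PBS 7 rose, 8 fell and 26 did not pass (median -0.01), and at 7 days against 1 day 12 rose, 12 fell and 17 did not pass (median 0.10). In either direction 20, 15 and 24 of the 41 were called in these comparisons, beside 49.1%, 35.6% and 56.6% of all genes tested, about the same shares. The subgroup counts below stand beside the shares of all genes tested that rose and fell. These were 24.9% and 24.2% at 1 day against PBS, 16.8% and 18.9% at 7 days against PBS, and 27.5% and 29.1% at 7 days against 1 day. The rises at 1 day against PBS were 5 in place of 8 without PBS replicate 3, LPS 1 day replicate 1 or LPS 1 day replicate 3. Those at 7 days against PBS were 4 in place of 7 without any 1 of the LPS 7 day libraries, and also 4 with DESeq2.

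Among genes of phospholipases and arachidonate supply, 4 of 16 rose and 5 fell at 1 day against PBS. Pla2g3, a secreted phospholipase, had 10.7 ± 0.42 CPM in LPS at 1 day and 4.65 ± 0.51 CPM in PBS (log2 fold change 1.21 ± 0.15, edgeR adjusted p = 1.31e-09). Pla2g4e, a cytosolic phospholipase, rose by 0.29 ± 0.06 on the log2 scale, and Daglb, a diacylglycerol lipase, fell by 0.39 ± 0.07 (edgeR adjusted p = 2e-05 and 1.67e-05). At 7 days against 1 day Pla2g4e, Faah and Mgll, the last 2 being hydrolases of endocannabinoids, fell by 0.55 ± 0.06, 0.39 ± 0.05 and 0.29 ± 0.05 (edgeR adjusted p = 6.9e-12, 2.12e-08 and 6.45e-07). At 7 days against PBS 2 rose and 5 fell, with Acsl4, Dagla and Mgll at -0.37, -0.27 and -0.23 (edgeR adjusted p = 3.42e-08, 2.68e-06 and 7.73e-05).

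Of 7 other prostanoid synthases and reductases tested, 2 fell at 1 day against PBS and 5 did not pass. Prxl2b, a prostaglandin F synthase, had 14.3 ± 1.55 CPM in LPS at 1 day, 24.3 ± 1.22 CPM in LPS at 7 days and 20.9 ± 3.48 CPM in PBS. It fell at 1 day by 0.55 ± 0.10 on the log2 scale against PBS (edgeR adjusted p = 1.86e-05) and rose by 0.77 ± 0.10 at 7 days against 1 day (edgeR adjusted p = 6.71e-09). Cbr1, a carbonyl reductase of prostaglandins, fell by 0.20 ± 0.07 at 1 day (edgeR adjusted p = 0.012). Ptgis, the prostacyclin synthase, did not pass at 1 day (5.48 ± 1.18 CPM in LPS, 4.93 ± 0.34 CPM in PBS, edgeR adjusted p = 0.579). At 7 days it had 3.07 ± 1.13 CPM, lower than PBS by a log2 fold change of -0.69 ± 0.21 (edgeR adjusted p = 0.00799), and lower than LPS at 1 day by -0.82 ± 0.21 (edgeR adjusted p = 0.000722). The reductase Cbr3 fell at 7 days by 0.64 ± 0.16 against PBS and by 0.87 ± 0.16 against LPS at 1 day (edgeR adjusted p = 0.00125 and 6.55e-06). Tbxas1, the thromboxane synthase of microglia and platelets, and Akr1b3, an aldose reductase that also makes prostaglandin F, passed in no comparison. Tbxas1 had 2.27 ± 0.60 CPM in LPS at 1 day, 2.24 ± 0.14 CPM in LPS at 7 days and 3.01 ± 0.53 CPM in PBS, and Akr1b3 26.7 ± 1.18, 26.8 ± 1.18 and 30.2 ± 1.21 CPM in the same order.

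Degradation and transport genes gave 1 rise and 2 falls among 5 at 1 day against PBS. Slco2a1, the prostaglandin uptake transporter of endothelium, had 9.79 ± 1.07 CPM in LPS at 1 day, 8.83 ± 0.45 CPM in LPS at 7 days and 6.60 ± 0.78 CPM in PBS. It was higher than PBS by 0.56 ± 0.14 at 1 day and 0.42 ± 0.14 at 7 days on the log2 scale (edgeR adjusted p = 0.000729 and 0.0148). The reductases Ptgr2 and Zadh2, which act on prostaglandin metabolites, fell by 0.47 ± 0.10 and 0.42 ± 0.08 at 1 day (edgeR adjusted p = 6.51e-05 and 3.13e-05) and rose by 0.26 ± 0.10 and 0.46 ± 0.08 at 7 days against 1 day (edgeR adjusted p = 0.0204 and 5.03e-06). Ptgr1, a related reductase that also acts on leukotriene B, rose by 1.08 ± 0.36 at 7 days against 1 day (edgeR adjusted p = 0.00989).

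The other prostanoid receptors were rare. Of 7 listed, 4 did not meet the count minimum and were not tested. Ptgir, the prostacyclin receptor, had 6, 8 and 8 counts in LPS at 1 day and 1 count in each PBS library, a ratio of 7.66 (95% counting interval 2.30 to 40.0), and 4, 3 and 2 counts in LPS at 7 days (ratio to PBS 2.88, interval 0.719 to 16.6). Ptger2, a prostaglandin E receptor, had 1, 4 and 6 counts in LPS at 1 day, 9, 11 and 10 counts in LPS at 7 days and 6, 8 and 8 counts in PBS. Ptger1 had 27, 24 and 25 counts over the groups in the same order, and Ptgdr2, the other prostaglandin D receptor, 20, 5 and 11. Such intervals cover counting error only. Ptgfr, the prostaglandin F receptor (0.720 ± 0.186 CPM in LPS at 1 day, 0.809 ± 0.249 CPM in LPS at 7 days and 1.07 ± 0.05 CPM in PBS), and Tbxa2r, the thromboxane receptor (0.704 ± 0.612, 1.24 ± 0.37 and 0.848 ± 0.327 CPM), passed in no comparison. Ptgfrn, a membrane protein that inhibits prostaglandin F receptor binding, fell by 0.16 ± 0.06 at 1 day and by 0.62 ± 0.07 at 7 days against PBS (edgeR adjusted p = 0.0407 and 3.71e-11), and by 0.46 ± 0.07 at 7 days against 1 day (6.36e-08).

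In the lipoxygenase and epoxygenase branch, which uses the same arachidonic acid, 3 of 10 rose and 2 fell at 1 day against PBS. Alox12b, an epidermal-type lipoxygenase, had 6.71 ± 0.78 CPM in LPS at 1 day, 1.86 ± 0.26 CPM in LPS at 7 days and 1.88 ± 0.82 CPM in PBS. It rose by 1.81 ± 0.23 on the log2 scale at 1 day (edgeR adjusted p = 3.15e-09) and fell by 1.84 ± 0.23 at 7 days against 1 day (edgeR adjusted p = 9.39e-10). Alox12, the platelet-type lipoxygenase, and Ephx2, the soluble epoxide hydrolase, moved the other way. They fell by 1.30 ± 0.40 and 0.49 ± 0.12 at 1 day (edgeR adjusted p = 0.00624 and 0.000623) and rose by 1.42 ± 0.40 and 0.41 ± 0.12 at 7 days against 1 day (edgeR adjusted p = 0.00195 and 0.00323). At 7 days against PBS 3 of 10 rose by edgeR, and Alox5ap, the activator of 5-lipoxygenase, was lower with an unadjusted p of 0.0216 that did not pass adjustment (log2 fold change -0.96, edgeR adjusted p = 0.0585). The 3 that rose were the cysteinyl leukotriene receptors Cysltr1 and Cysltr2 at 1.10 ± 0.43 and 1.58 ± 0.49 and Alox8 at 0.37 ± 0.15 (edgeR adjusted p = 0.0423, 0.00855 and 0.0462). Cysltr1 averaged 1.09 ± 0.06 CPM in LPS at 7 days, 0.569 ± 0.035 CPM in LPS at 1 day and 0.515 ± 0.208 CPM in PBS. For Cysltr2 the levels were 1.22 ± 0.44, 0.665 ± 0.314 and 0.415 ± 0.317 CPM. The count minimum was about 0.629 CPM, near or above their levels in the other groups. The entry of these receptors leaned on the group in which they were highest, so their place among the rises supports nothing. The 7 day libraries also differ in the cerebellar transcripts given above, and their part in these values was not tested.

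**Figure D4:**
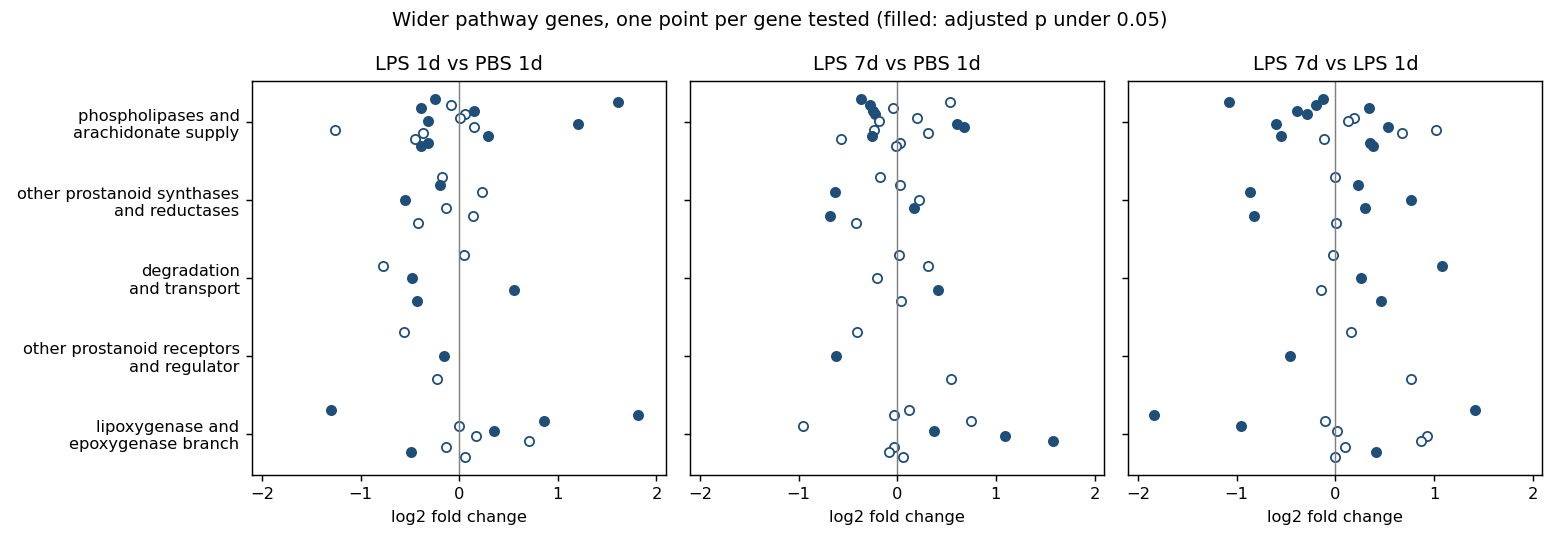
Log2 fold changes of the 41 tested genes of the wider pathway, 1 point per gene, by subgroup (rows) and comparison (panels); filled points have an adjusted p under 0.05. Rises and falls occur in each of the 3 comparisons, and Alox12b lies at the far right for LPS at 1 day against PBS and at the far left for LPS at 7 days against LPS at 1 day.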

How the data were processed

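Bulk RNA was sequenced from 9 libraries in 3 groups of 3. Per the submitters' processing notes TopHat2, HISAT2 and HTSeq were used with build GRCm39; the sources used here give no version, role or strand setting for them. The authors deposited raw gene counts, FPKM values and other columns such as gene length and coordinates, and the deposited FPKM could be recomputed from the counts and lengths (largest relative difference 1.58e-07). Counts were fitted for all 9 libraries with edgeR 4.0.16 in R 4.3.3: TMM scaling, the default expression filter with a count minimum of 10, which 14837 of 21899 genes passed, a quasi-likelihood fit of group means, and Benjamini-Hochberg adjustment over all genes tested with a threshold of 0.05. All 10 genes passed the filter. DESeq2 1.42.0 was an alternative, beside other scalings, no filter, the compared groups alone, a replicate block and leaving out each library. The script was tested on simulated data. The labels do not say that libraries with the same number are paired, and correlations of their deviations ran from -0.0232 to 0.0270, so they were not treated as pairs. Every pair of replicates differed by more than sampling noise. The 10 genes and all lists were chosen with earlier results of these data known. Named from the wider pathway were the synthases and receptors, and the 3 called genes of each subgroup with the smallest p. Genes most like a member were the 3 with the highest Pearson's r of log2 CPM with a prior count of 2; 1 of them is not reported here. Start regions came from RefSeq (GRCm38.p6), a build other than that of the files, and all 10 genes matched.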

Additional observations from a re-analysis of the deposited data

How the results depend on the processing

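With DESeq2's Wald test 3 of the 10 genes passed at 1 day against PBS in place of 5, losing Ptges and Ptger3. Leaving out 1 library at a time gave 3 to 5 genes at 1 day against PBS, 0 to 3 at 7 days against PBS and 4 to 4 at 7 days against 1 day, and over all genes 6371 to 7484, 4629 to 5304 and 7584 to 8530 calls. Over the wider pathway it gave 15 to 20, 11 to 15 and 21 to 24 calls. Among the alternative values of the 10 genes' fold changes, 460 kept their direction where called and their side of the threshold, 17 lost the call, 2 gained it and none reversed. Library size alone as the scaling gave 3183 rises and 2327 falls at 7 days against PBS, against 2489 and 2800. A fit with the replicate number as a block called 5, 2 and 4 of the 10 genes and 7142, 5139 and 8269 genes in all for 1 day against PBS, 7 days against PBS and 7 days against 1 day, and changed no call of the 10. With the compared groups alone, Ptgdr was not tested at 7 days against PBS. The cause of these changes was not tested. Ptgdr, Ptger4 and Hpgd, with few counts, have the widest intervals.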
